A study of Homo sapiens with 21 samples.

Results

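The integrin alpha subunits described here are 9 of the 23201 genes in the deposited table. They were chosen by name among alpha chains of integrins that bind extracellular matrix. The set is not complete, and 9 other alpha subunits, some of which fell, are described apart. They are *ITGA1*, *ITGA2*, *ITGA10* and *ITGA11* (the collagen-binding subunits), *ITGA3* and *ITGA6* (laminin-binding), *ITGA5* and *ITGAV* (which recognise the RGD motif of fibronectin and vitronectin) and *ITGA4* (which binds the connecting segment of fibronectin and VCAM1). RNA was sequenced from HMLE cells, an immortalized human mammary epithelial line, without treatment (d0) and after 1, 4, 7, 10, 15 and 20 days of TGFβ (d1 to d20), a cytokine that induces epithelial-to-mesenchymal transition (EMT). All groups are the same line, seeded at one density, and untreated cells were collected only at d0, so time in culture and time in TGFβ cannot be told apart. Each of the 7 timepoints had 3 libraries, called biological triplicates in the study, and the labels do not say whether they were separate cultures, so p-values measure the spread between these libraries.

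An integrin is a pair of one alpha and one beta chain in the plasma membrane. The alpha chain sets most of the ligand preference, and the pair links the matrix outside to talin, kindlin and actin inside. Basal mammary epithelial cells sit on a laminin-rich basement membrane, which they hold with α3β1 and α6β4, and α6β4 is the receptor of the hemidesmosome. α5β1 is the classical fibronectin receptor, and αv pairs with several beta chains, of which αvβ6 and αvβ8 can release TGFβ from its latent complex.

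The libraries held 18847917 to 22667754 recovered reads. Basal markers (*KRT5*, *KRT14*, *KRT17*, *TP63*, *CDH3*) were present in every library, the leukocyte markers *PTPRC* and *CD3E* and the endothelial marker *CDH5* were at or under 3 reads throughout, and the epithelial markers *EPCAM* and *CDH1* fell by 2.39 and 1.33 on the log2 scale at d20 (limma, adjusted p = 3.69e-16 and 1.7e-14). The endothelial markers *PECAM1*, *CDH5* and *VWF* summed to 47.2 to 54.3 at d0 and 14.8 to 19.6 at d20. *PECAM1* had a log2 fold change of -1.71 at d20 (limma, adjusted p = 0.00109). The luminal markers (*KRT8*, *KRT18*, *KRT19*, *GATA3*, *ESR1*) summed to 15432 to 16811 at d0 and 13110 to 13521 at d20. The adipocyte markers *ADIPOQ* and *PLIN1* summed to 9.9 to 14.2 at d0 and 30.8 to 40.4 at d15. The third leukocyte marker, *CD68*, which encodes a lysosomal protein, had a mean value of 371 at d0, 803 at d4 and 648 at d20 and was higher on 5 treated days, by 0.81 on the log2 scale at d20 (limma, adjusted p = 1.76e-09). The part of this in the members' values was not tested. One of the d7 libraries, library 3, stood apart. Its root-mean-square log2 distance to the other d7 libraries was 0.472 and 0.457. The distance between those 2 was 0.223, and within every other timepoint it was 0.21 to 0.24. For the members tested, d7 values are therefore given by library. These are bulk libraries, in which fewer cells of a type and less RNA per cell cannot be told apart.

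All 7 members that passed the filter on low values (a mean of at least 10 over the 21 libraries) rose under TGFβ, and 6 of them rose on all 6 treated days. *ITGA10* was the exception, higher on 4 days. In limma's test on log2(value + 1), with Benjamini-Hochberg adjustment over all 13343 genes tested and a threshold of 0.05, all 7 were higher on d4, d10, d15 and d20 and 6 of the 7 on d1 and d7, and 0 were lower on any day. Over all genes tested, the shares higher, in the order of the days, were 31.3%, 36.9%, 34.6%, 37%, 39.2% and 32.5%, and the shares lower were 28.5%, 35.3%, 32.6%, 30.7%, 37.3% and 30.2%. A rise of at least 2-fold past the threshold was seen for 5, 6, 3, 5, 4 and 5 of the 7 members in the order of the days, against 6.47%, 9.68%, 8.79%, 6.94%, 11.7% and 7.51% of all genes. Of all genes tested, 14.3% were higher on all 6 days.

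The median log2 fold change of the 7 members was, in the same order, 1.23, 1.44, 0.94, 1.33, 1.32 and 1.28, and that of all genes tested lay between 0.00 and 0.03. In 40 of the 42 pairs of member and treated day, all 3 treated libraries lay above all 3 untreated ones, and the other 2 were *ITGA10* at d1 and d7. The same held for 37.6% of such pairs over all genes tested. With every library scaled to one total, the median of all genes moved to between -0.14 and -0.20, and the members higher than in untreated cells still numbered 6 or 7 on each day. *ITGA10* was then also lower at d1.

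**Figure D1:**
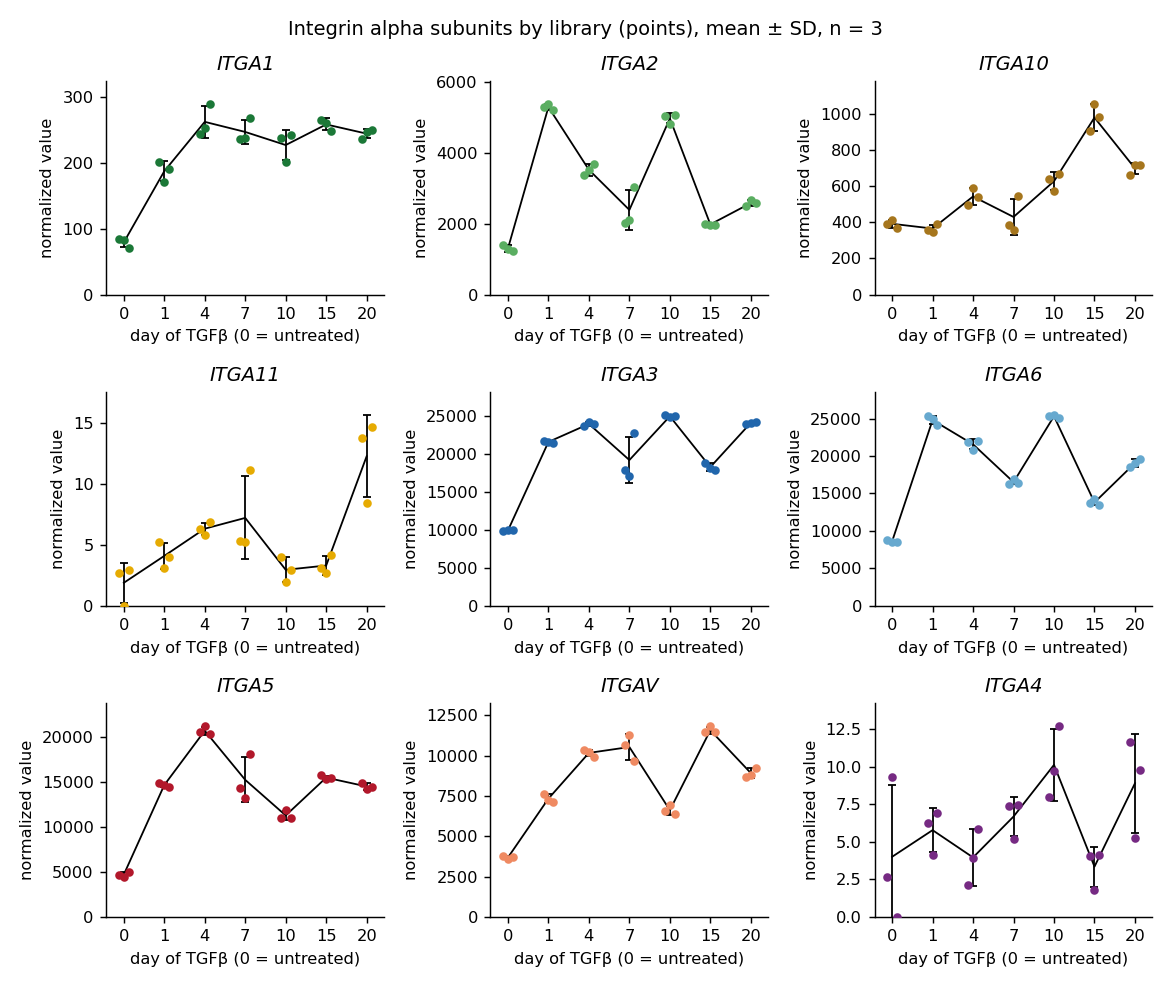
Normalized value (linear axis from 0) of each of the 9 integrin alpha subunits at each timepoint, with 1 point per library and the mean ± SD of 3 libraries as a black line. *ITGA2*, *ITGA3* and *ITGA6* peak at d1 or d10 and dip at d7 and d15, *ITGAV* does the reverse at d10 and d15, and *ITGA4* and *ITGA11* stay below 15 in every library.

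Of the laminin-binding pair, *ITGA3* encodes the α3 chain of α3β1. Its untreated libraries read 9794, 9916 and 9994 (normalized value), and those of d1 read 21743, 21513 and 21425. At d10, its highest timepoint, the libraries read 25103, 24783 and 24925, a difference from d0 of 1.33 on the log2 scale (standard error 0.06, limma, adjusted p = 7.54e-14). The d7 libraries read 17800, 17027 and 22698, and library 3 of these lay above every d1 library. No treated library came below 17027, so *ITGA3* was above every untreated library throughout. In order of mean level the timepoints ran d10, d20, d4, d1, d7, d15 and d0, and libraries overlapped between d20 and d4, between d1 and d7 and between d7 and d15.

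*ITGA6* encodes the α6 chain, which pairs with β1 and, in hemidesmosomes, with β4. It read 8789, 8459 and 8509.8 at d0 and 25289.8, 24919.9 and 24203 at d1, an increase of 1.53 on the log2 scale (standard error 0.03, limma, adjusted p = 2.31e-19). The d4 libraries read 21873, 20788 and 22029 and the d7 libraries 16319, 16874 and 16338. At d10 they were back to 25334, 25465 and 25145, and they then read 13728, 14198 and 13454 at d15 and 18504, 19112 and 19558 at d20. The profile therefore had 2 maxima, d1 and d10, whose libraries overlapped, and no other neighbours in the order of levels did. The fall from d10 to d15 was -0.88 on the log2 scale (standard error 0.03, limma, adjusted p = 2.4e-15), and the level at d15 was still 1.61-fold that of untreated cells.

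Of the RGD-binding pair, *ITGA5* encodes the α5 chain of the fibronectin receptor and had the largest log2 fold change among the 7 members tested, at d4. It read 4658, 4450.4 and 4962 at d0, 14857, 14625 and 14460.2 at d1 and 20563, 21196 and 20316 at d4, where the log2 fold change was 2.14 (standard error 0.07, limma, adjusted p = 9.02e-17). At d10 the libraries read 10993, 11844 and 10964, below those of every other treated day. Libraries at d15 (15721, 15268 and 15437), d7 (14372, 13256 and 18048), d1 and d20 (14887, 14174 and 14408) formed a middle band in which neighbours overlapped.

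*ITGAV* encodes the αv chain. Its libraries read 3748, 3588 and 3696 at d0, 7644, 7219 and 7135 at d1 and 10339, 10239 and 9935 at d4. The d7 libraries stayed near that level with 10633, 11283 and 9691, and those of d10 dropped to 6543, 6918 and 6391. The d15 libraries read 11464, 11829.5 and 11441 and the d20 libraries 8687, 8821 and 9254. The maximum was thus d15, at 1.66 above d0 on the log2 scale (standard error 0.05, limma, adjusted p = 3.91e-18), and the lowest treated timepoint was d10, at 0.85 (adjusted p = 6.88e-13). From d10 to d15 *ITGAV* rose by 0.81 on the log2 scale (standard error 0.05, limma, adjusted p = 8.65e-13), the step on which *ITGA6* fell.

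The 4 collagen-binding subunits differed in both level and time course. *ITGA2*, the α2 chain of the collagen receptor of epithelia and platelets, read 1392, 1276 and 1225 at d0 and 5283, 5369 and 5190.2 at d1, an increase of 2.03 on the log2 scale (standard error 0.09, limma, adjusted p = 4.2e-14). The d4 libraries read 3356, 3503 and 3684, the d7 libraries 2028, 2097 and 3026 and the d10 libraries 5021, 4799 and 5059. After that it read 2000.4, 1955 and 1971 at d15 and 2482, 2663 and 2585 at d20. Like *ITGA6*, *ITGA2* had maxima at d1 and d10, which here did not overlap, and its lowest treated timepoint was d15 (log2 fold change 0.61, adjusted p = 3.9e-06). Without d7 library 3, the d7 log2 fold change was 0.67 in place of 0.85.

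*ITGA1*, the α1 chain, read 83.7, 82.3 and 71.2 at d0, 201, 170.2 and 189.6 at d1 and 244, 252 and 289 at d4. The d7 libraries read 235, 237 and 267. From d4 onward its libraries lay between 200.2 and 289, and every treated timepoint overlapped its neighbour in the order of levels. The log2 fold change was 1.23 at d1 and 1.62 at d20 (standard error 0.09 each, limma, adjusted p = 2.57e-10 and 1.96e-12), and of the 5 later steps only d1 to d4 passed the threshold (0.48, adjusted p = 0.000125). Of the exon bases of *ITGA1*, 475 of 10757 also belong to *PELO* on the same strand. Over the 21 libraries the mean value was 912 for *PELO* and 215 for *ITGA1*. *PELO* was itself higher on every treated day, with log2 fold changes of 0.19 to 0.86, and its part in the *ITGA1* values was not tested. Antisense genes overlap 48 to 203 exon bases of *ITGA1*, *ITGA5*, *ITGA6*, *ITGA10* and *ITGAV*, and no source used here says whether counting used strand.

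*ITGA10*, the α10 chain known from cartilage, read 392, 413 and 371 at d0 and 358, 349 and 391 at d1, which overlapped (log2 fold change -0.10, standard error 0.11, limma, adjusted p = 0.443). It read 905, 1056 and 982 at d15, its maximum, at 1.32 above d0 on the log2 scale (standard error 0.11, limma, adjusted p = 4.02e-10). The libraries of d15 lay above all those of d20 (662, 719.9 and 716) and d10 (639, 575 and 671). At d7 library 3 read 545 and the others 385 and 359.7, and the log2 fold change was 0.11 with all 3 (adjusted p = 0.385) and -0.07 without library 3 (adjusted p = 0.377).

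*ITGA11*, the α11 chain of fibroblast collagen receptors, and *ITGA4* did not pass the filter, with means of 5.44 and 6.11 over the 21 libraries. *ITGA11* had 3, 0 and 3 reads in the untreated libraries, at the floor of 3 reads below which a gene was treated as not detected. At d20 it had 13, 8 and 15 reads. The ratio of summed reads, scaled by the size factors, was 6.82 (exact 95% counting interval 2.85 to 19.8). Without the filter, limma gave *ITGA11* an adjusted p of 0.00363 (d4), 0.0026 (d7) and 8.19e-05 (d20), and values above the threshold on the other 3 days. *ITGA4* read 2.67, 9.33 and 0 at d0 and 7.96, 9.72 and 12.7 at d10, and all neighbouring timepoints overlapped. Its adjusted p without the filter was 0.0154 at d10 and 0.0346 at d20 and above the threshold on the other 4 days. Both genes therefore had at most 15 reads in any library.

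**Figure D2:**
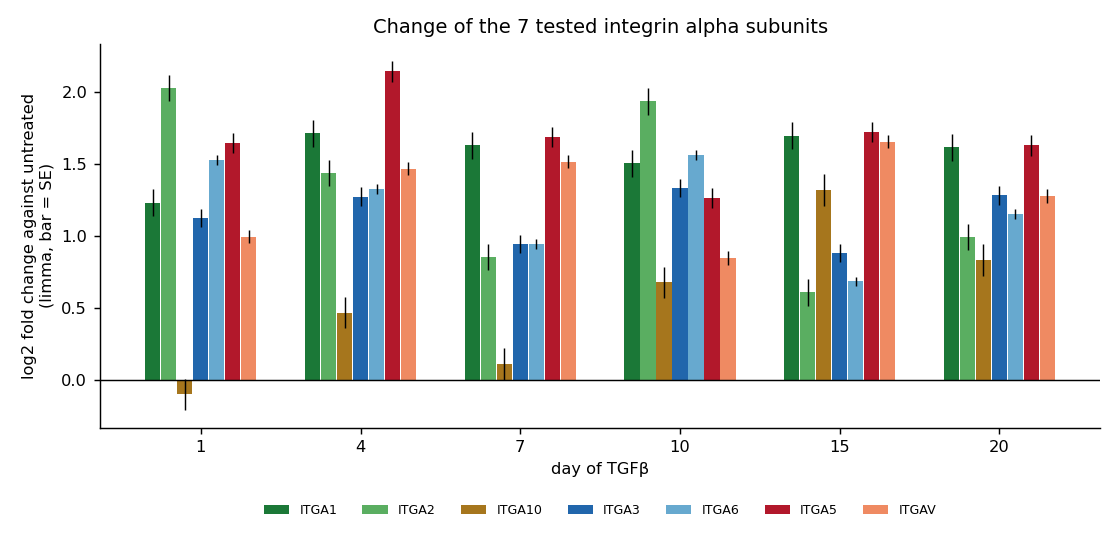
Log2 fold change against untreated cells (limma, error bar = standard error) of the 7 integrin alpha subunits tested, by day of TGFβ. All bars lie above 0 except *ITGA10* at d1 (-0.10), the tallest is *ITGA5* at d4 (2.14), and *ITGA2* and *ITGA6* are lower at d7 and d15 than at d1 and d10.

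Between successive timepoints after d1, 7 of the 7 members changed from d1 to d4, 5 from d4 to d7, 6 from d7 to d10, 6 from d10 to d15 and 5 from d15 to d20 (limma, adjusted p under 0.05). Over all genes the same steps changed 64.9%, 51.1%, 71.4%, 79.8% and 74.1%, and the members differed in direction. From d1 to d4, *ITGA1*, *ITGA10*, *ITGA3*, *ITGA5* and *ITGAV* rose while *ITGA2* and *ITGA6* fell. From d4 to d7, 5 members fell (log2 fold changes of -0.33 to -0.58) and 0 rose. From d7 to d10, *ITGA2* (1.08), *ITGA6* (0.62), *ITGA10* (0.57) and *ITGA3* (0.39) rose while *ITGAV* (-0.67) and *ITGA5* (-0.42) fell. From d10 to d15, *ITGA2* (-1.33), *ITGA6* (-0.88) and *ITGA3* (-0.45) fell while *ITGAV* (0.81), *ITGA10* (0.64) and *ITGA5* (0.46) rose. From d15 to d20, *ITGA6* (0.47), *ITGA3* (0.40) and *ITGA2* (0.38) rose while *ITGA10* (-0.49) and *ITGAV* (-0.38) fell. The fall of *ITGA6* from d1 to d4 (-0.20) was -0.08 with quantile normalization (adjusted p = 0.0583). The small rise of *ITGA3* from d1 to d4 (0.15, adjusted p = 0.0435) did not pass the threshold with edgeR (adjusted p = 0.0718) or with any of the 6 libraries left out (adjusted p of 0.0687 to 0.0973). The fall of *ITGA10* from d4 to d7 (-0.36, adjusted p = 0.00926) was lost when only those 2 timepoints were fitted (adjusted p = 0.115) and without d4 library 2 (0.0519) or d7 library 2 (0.0755). The change of *ITGAV* from d4 to d7 (0.05, adjusted p = 0.399) passed without d7 library 3 (0.11, adjusted p = 0.00945), and that of *ITGA1* from d10 to d15 (0.19, adjusted p = 0.0672) passed without d10 library 3 (0.24, adjusted p = 0.0444) and with edgeR (0.20, adjusted p = 0.0413).

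To set genes against each other, values were divided by the length of the longest annotated transcript. The summed value per kilobase of the 9 members was 5045 ± 67.9 (SD, n = 3) in untreated cells, 13085 ± 205 after 1 day and 14370 ± 22.3 at d4, then 10993 ± 145 at d15 and 12443 ± 123 at d20. On this scale *ITGA3* (35.8% ± 0.62) and *ITGA6* (30.3% ± 0.53) made up most of the sum of the 9 members in untreated cells. They were followed by *ITGA5* (18.6% ± 0.81), *ITGAV* (10.4% ± 0.12), *ITGA2* (3.27% ± 0.21) and *ITGA10* (1.48% ± 0.10). *ITGA1* took 0.15%, and *ITGA4* and *ITGA11* took under 0.1% at every timepoint.

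The laminin-binding share was 66.1% ± 0.59 (SD, n = 3) in untreated cells and 63.8% ± 0.10 after 1 day. It was 57.1% ± 0.69 at d4 and 56.5% ± 0.41 at d7, returned to 69.5% ± 0.58 at d10, was lowest at d15 with 52.6% ± 0.40, and ended at 62.6% ± 0.45. The RGD-binding share was 28.97% ± 0.82 in untreated cells and 30.4% ± 0.17 after 1 day. It rose to 38.9% ± 0.74 at d4 and 39.9% ± 0.32 at d7, was lowest at d10 with 24.5% ± 0.85 and highest at d15 with 43.2% ± 0.36, and ended at 33.5% ± 0.57. The laminin-binding pair was thus the larger class on every day, with the shares closest at d15 and farthest apart at d10. No treated day's libraries overlapped the untreated ones in either share (two-sided exact permutation p = 0.1 for each day, the smallest that 3 against 3 libraries allow). The rise of the RGD share at d1, 1.41 percentage points, was 0.40 points without the division by length. The 3 d7 libraries, which differed by gene, had RGD shares of 39.7% to 40.3%.

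The collagen-binding share was between 3.56% and 5.92% at every timepoint, highest at d10 (5.92% ± 0.27) and d1 (5.80% ± 0.08). Within it, *ITGA2* took 5.13% ± 0.08 at d1 and 2.28% ± 0.03 at d15, and *ITGA10* took 0.53% ± 0.04 at d1 and 1.69% ± 0.14 at d15. *ITGA10* was nearest to *ITGA2* at d15. The summed value of the 5 basal markers was 491285 to 508607 at d15 and 338003 to 702040 at d7, against 337006 to 361891 at d0, 276730 to 286132 at d4, 194771 to 198746 at d10 and 260401 to 264054 at d20. It was thus highest at d15 and in 2 d7 libraries and lowest at d10, but at d4, where the RGD share was also high, it lay below d0. The 5 genes did not move together. At d15, the log2 fold changes were 2.25 for *KRT17*, 0.71 for *KRT14*, 0.61 for *CDH3*, 0.28 for *TP63* and -0.35 for *KRT5*. The mean of *KRT17* was 39309 at d0 and 186677 at d15, and that of *KRT5* was 224349 and 175809. The part of these markers in the shares was not tested, and *KRT14* and *KRT17* have near-identical copies with which they can share reads.

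**Figure D3:**
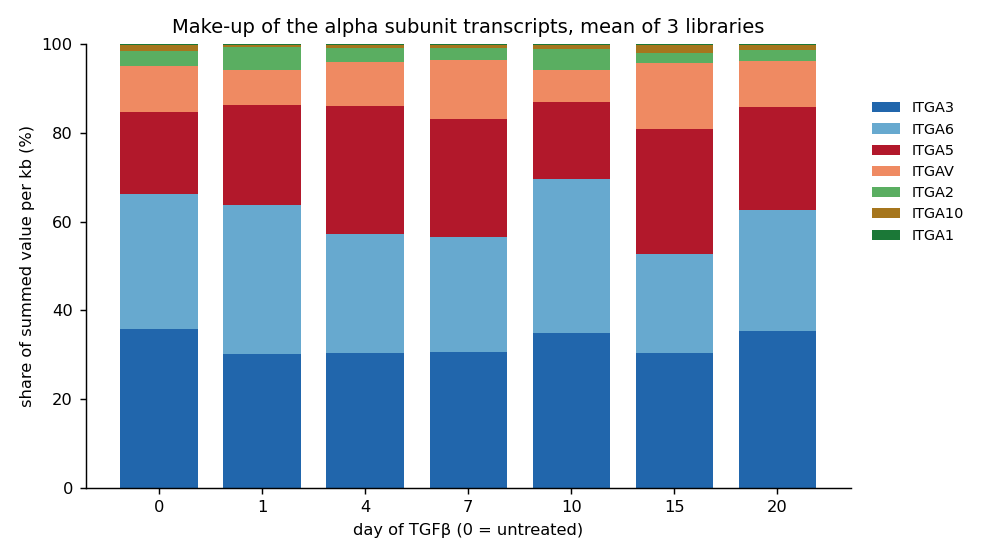
Share of each integrin alpha subunit in the summed value per kilobase of the 9 members (mean of 3 libraries, axis from 0 to 100%), by day of TGFβ; *ITGA4* and *ITGA11*, under 0.1%, are not drawn. The blue laminin-binding pair takes 66.1% before treatment, 69.5% at d10 and 52.6% at d15, and the red RGD-binding pair takes 28.97%, 24.5% and 43.2%.

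A ratio of 2 genes within a library does not depend on the library's size factor. The log2 ratio of *ITGA5* to *ITGA6* was -0.87 ± 0.08 (SD, n = 3) in untreated cells and -0.06 ± 0.08 at d4. It dropped to -1.17 ± 0.06 at d10, its lowest value, reached 0.17 ± 0.05 at d15 and ended at -0.40 ± 0.07. It was above d0 on 5 days and below it at d10 (two-sided exact permutation p = 0.1 for each day). The 18 treated libraries exceeded the 3 untreated ones by 0.48 on average (two-sided exact permutation p = 0.111). These treated libraries came from 6 timepoints that differed in level. Tests over all treated libraries count them as independent, so their p-values do not measure the spread between libraries alone. The log2 ratio of *ITGAV* to *ITGA3* was -1.43 ± 0.04 in untreated cells, -1.92 ± 0.07 at d10 and -0.66 ± 0.05 at d15. With -1.43 ± 0.04 at d20, it differed from d0 by less than the spread between libraries. Over all treated libraries it differed from d0 by 0.15 (two-sided exact permutation p = 0.574). At d7 this ratio was between -1.23 and -0.59 in the 3 libraries. The ratio of *ITGA11* to *ITGA2* rested on 0 to 3 reads of *ITGA11* at d0, and its sign against d0 changed with the pseudocount on 4 days, so no direction is given.

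**Figure D4:**
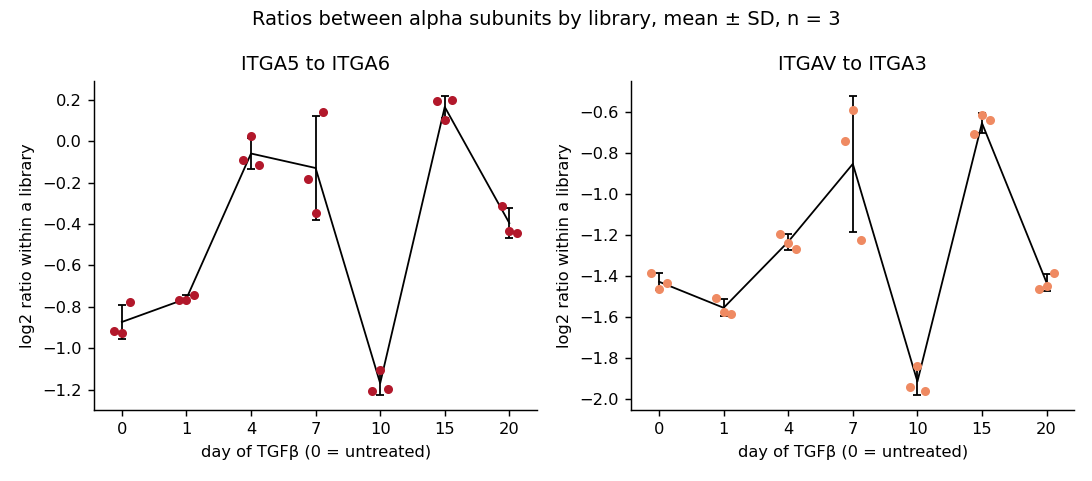
Log2 ratio of *ITGA5* to *ITGA6* (left) and of *ITGAV* to *ITGA3* (right) within each library (points), with the mean ± SD of 3 libraries, by day of TGFβ. Both ratios are lowest at d10 (-1.17 and -1.92) and highest at d15 (0.17 and -0.66), and the d7 libraries are spread most widely.

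Across the 21 libraries, which share the timepoint means and therefore are not independent points, the log2 values of *ITGA2* and *ITGA6* followed each other with a Pearson r of 0.948, those of *ITGA1* and *ITGA5* with 0.919, *ITGA3* and *ITGA6* with 0.915, *ITGA1* and *ITGAV* with 0.911 and *ITGA5* and *ITGAV* with 0.909. *ITGA2* and *ITGAV* gave 0.241, *ITGA6* and *ITGA10* 0.047 and *ITGA2* and *ITGA10* -0.057. These values describe profiles and carry no test. The genes whose profiles were most like each member were *GALNT10* (r = 0.987) and *FN1* (0.979) for *ITGA1*, *AJAP1* (0.983) and *HOMER3* (0.976) for *ITGA2*, *VEGFC* (0.991) and *STK10* (0.99) for *ITGA3*, and *CCND1* (0.99) and *PXN* (0.978) for *ITGA6*. They were *PINK1* (0.986) and *CTSB* (0.981) for *ITGA5*, *LRP10* (0.985) and *DIXDC1* (0.982) for *ITGAV*, and *DENND5A* (0.921) and *ZNF853* (0.912) for *ITGA10*. *CCND1* encodes cyclin D1 and *PXN* the focal adhesion adaptor paxillin, and *FN1* encodes fibronectin.

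Promoter sequences are shown for 3 collagen-binding subunits, *ITGA2*, *ITGA1* and *ITGA11*, of which *ITGA11* did not pass the filter. A relation of these sequences to the time courses was not tested. The sequences are the bases upstream of the RefSeq start (GRCh38.p14), cut where a longer annotated transcript begins. Matches to GGGCGG (the GC box), CAGAC (a SMAD-binding sequence) and CACCTG (an E-box of the SNAI and ZEB factors) are in capitals on either strand.
ITGA2, chr5:52989102-52989325, plus strand: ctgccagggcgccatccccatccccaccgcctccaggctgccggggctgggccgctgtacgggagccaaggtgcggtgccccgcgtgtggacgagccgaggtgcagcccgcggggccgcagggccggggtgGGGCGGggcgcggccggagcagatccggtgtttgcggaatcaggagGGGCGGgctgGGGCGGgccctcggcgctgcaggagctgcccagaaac
ITGA1, chr5:52787666-52787895, plus strand: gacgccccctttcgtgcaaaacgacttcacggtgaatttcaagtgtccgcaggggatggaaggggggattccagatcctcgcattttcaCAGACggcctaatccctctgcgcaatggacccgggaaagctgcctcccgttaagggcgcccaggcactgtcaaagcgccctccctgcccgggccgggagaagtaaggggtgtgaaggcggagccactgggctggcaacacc
ITGA11, chr15:68432164-68432413, minus strand: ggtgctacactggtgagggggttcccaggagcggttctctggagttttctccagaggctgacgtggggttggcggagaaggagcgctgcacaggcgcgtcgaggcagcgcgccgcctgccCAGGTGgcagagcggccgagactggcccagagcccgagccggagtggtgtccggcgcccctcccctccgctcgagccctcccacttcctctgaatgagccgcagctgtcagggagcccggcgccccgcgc

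In the 250 bases before the start, *ITGA2* had 4 GC boxes and no CAGAC, *ITGA1* and *ITGA10* had 1 CAGAC and no GC box, and *ITGA11* had 1 CACCTG. These counts include bases that lie in a longer annotated transcript and were cut from the printed sequences. The cut was 20 bases for *ITGA1*, 26 for *ITGA2*, 139 for *ITGA10*, 194 for *ITGA5*, 184 for *ITGA4* and 31 for 1 start of *ITGA6*. The CAGAC of *ITGA10* lay in its cut part, and the printed part of *ITGA2* holds fewer GC boxes than were counted. *ITGA5* had 1 GC box and 1 CAGAC, and of the 2 starts of *ITGA6* one had 3 GC boxes and the other 2 CACCTG. Of the 2 starts of *ITGAV*, 1 had 1 CAGAC and the other had no match, and *ITGA4* had no match. Among all 35114 windows of this length, 42.6% held GGGCGG, 38.0% CAGAC, 17.5% CACCTG and 6.6% TGANTCA (the AP-1 site, found in 0 of the windows of the members). RefSeq windows were at hand for 8 of the 9 members, without *ITGA3*. These matches describe letters only.

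The beta chains that pair with the members were described next. Of 8 beta subunits, 7 passed the filter. At d1, 5 were higher and 1 was lower, and at d20, 6 were higher and 1 was lower (medians of 1.37 and 1.68, against 0.00 over all genes). Of all genes tested, 31.3% were higher and 28.5% lower at d1, and 32.5% and 30.2% at d20. These counts include *ITGB3*, which passed the filter through its treated libraries. Without it, 5 of 6 beta chains were higher and 1 was lower at d20, with a median of 1.38. *ITGB1*, a chain that can pair with each of the members, rose by 1.00 at d1 and 1.03 at d20 on the log2 scale (standard error 0.04, limma, adjusted p = 7.19e-16 and 3.25e-16). *ITGB4*, the partner of *ITGA6* in hemidesmosomes, rose by 1.86 at d1 and 1.68 at d20 (adjusted p = 4.54e-16 and 1.94e-15). From d10 to d15, *ITGB4* rose by 1.15 (standard error 0.07, limma, adjusted p = 7.78e-13) while *ITGA6* fell.

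Among the partners of αv, *ITGB6* rose by 3.22 at d1 and 2.53 at d20 (adjusted p = 2.37e-20 and 9.65e-19), and *ITGB5* by 1.37 and 1.09 (7.2e-14 and 2.9e-12). *ITGB3* was also higher on both days (2.12e-09 and 6.17e-12), but it had 2, 4 and 3 reads at d0 and passed the filter through its treated libraries, so its fitted fold depends on the pseudocount. Its mean value was 2.71 at d0, 21.8 at d1 and 46.5 at d20, and the ratio of d20 to d0 was 17.2 (exact 95% counting interval 8.79 to 38.4). *ITGB8* was the one that fell among the 7 beta chains tested, with log2 fold changes of -0.99 at d1 and -2.22 at d20 (limma, adjusted p = 2.07e-09 and 1.54e-15). *ITGB7*, the beta chain that did not pass the filter, had mean values of 12.9 at d0 and 4.43 at d20. *ITGB2*, the leukocyte beta chain, was 10.9 at d0 and 71.1 at d20 in mean value and rose by 2.67 at d20 (adjusted p = 9.98e-09), with 0.34 at d1 (adjusted p = 0.272). Of 9 other alpha subunits, 4 passed the filter, and at d20 *ITGAX* was higher (0.95, adjusted p = 0.000636) and *ITGA2B* and *ITGA7* were lower (-1.13 and -1.09, adjusted p = 0.0138 and 0.0148).

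The ligands of each class moved by different amounts. For comparison, 31.3% of all genes tested were higher and 28.5% lower at d1, and 32.5% and 30.2% at d20. All 10 collagen genes listed were higher at d20, and 7 were higher and 1 lower at d1, but 5 of the 10 had a mean under 10 in untreated cells and passed the filter through their treated libraries. The other 5 were also all higher at d20. *COL1A2* and *COL6A3*, the collagen genes with the largest fitted changes (limma, adjusted p = 1.85e-18 and 1.69e-15 at d20), had 3, 3 and 4 reads and 3, 10 and 5 reads at d0, and the ratios of d20 to d0 were 228 (exact 95% counting interval 124 to 477) and 136 (86.1 to 230). Of 9 laminin chains tested, 6 were higher and 2 lower at d20 (5 and 2 at d1), with *LAMA3* (2.86) among the highest and *LAMA5* (-0.71) and *LAMA2* (-0.62) at the bottom. *LAMA5* changed sides with time and was higher at d7 and d15 (0.46 and 0.90, limma, adjusted p = 5.9e-07 and 7.72e-12). Of 8 RGD and α4 ligands tested, 6 were higher and 2 lower at d20 (5 and 1 at d1), led by *FN1* (6.99) and *FBN1* (4.40), with *NPNT* (-3.04) and *TGFB3* (-1.17) lower. The median log2 fold change at d20 was 2.39 for the 5 collagens with a mean of at least 10 in untreated cells, 1.75 for the RGD and α4 ligands and 0.92 for the laminins.

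Of the 19 activators and proximal adaptors tested, which couple integrins to actin, 18 were higher at d1 and all 19 at d20 (median 0.73 at d20), among them the tensin *TNS1* (1.64 at d20). For this and the next lists, the shares over all genes tested were 31.3% higher and 28.5% lower at d1. At d20 they were 32.5% and 30.2%. *LIMS2* had 3, 3 and 2 reads at d0 and passed the filter through its treated libraries, with a ratio of d20 to d0 of 12.8 (exact 95% counting interval 6.22 to 30.5). The other 18 were all higher at d20, with a median of 0.72. At d15, 3 genes of this list, named after their values were seen, were lower, *FERMT1* (-0.29, adjusted p = 1.89e-06), *PARVB* (-0.20, adjusted p = 0.0279) and *RSU1* (-0.12, adjusted p = 0.0144). All 4 integrin inactivators were also higher at d1 and d20, led by *FLNA* (1.06 at d20), which encodes filamin A, and *DOK1* (0.86). *ITGB1BP1*, likewise named after its values were seen, was lower at d4 (-0.24, adjusted p = 0.000742) and d15 (-0.28, adjusted p = 0.000157). Of 9 tetraspanins and other lateral partners, 6 were higher and 2 lower at d20 (4 and 1 at d1), with medians of 0.17 and 0.09 and against 32.5% and 31.3% of all genes higher. They were led by *PLAUR* (1.28) and the α3 and α6 partner *CD151* (0.71), with *CD9* (-0.62) and *SLC3A2* (-0.44) lower. Of the 5 hemidesmosome genes, 4 were higher and 1 lower on both days, with *PLEC* (1.06 at d20) higher beside *ITGB4* and *DST*, the plakin BPAG1 gene, lower (-0.36 at d20). *DST* too changed sides and was higher at d7 and d15 (0.57 and 0.73, limma, adjusted p = 0.000157 and 5.91e-06). Its d7 libraries read 20037, 20534 and 12219, against 11310, 11110 and 12271 at d0. Library 3 of d7 thus lay within the untreated range, and the d7 rise rested on the other libraries.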

How the data were processed

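Values came from RNA-seq of 21 HMLE libraries, 7 timepoints with 3 libraries each. The submitters' processing notes name STAR 2.7, Salmon 1.4 and hg19 without their roles. The authors deposited a normalized signal per gene and library, reads divided by one size factor and rounded to 2 decimals; whole reads were recovered for 100% of values (tolerance 0.0051). With limma 3.58.1 (R 4.3.3), 13343 genes with a mean of at least 10 were compared on the log2(value + 1) scale (eBayes with trend, one mean per timepoint) with Benjamini-Hochberg adjustment and a threshold of 0.05. Few reads limit low genes. Ratios of genes with few untreated reads, chosen after their values were seen, are of summed reads scaled by the summed inverse size factors. They have exact Clopper-Pearson intervals, and intervals and floors cover counting error only. Shares and ratios used two-sided exact permutation tests (scipy 1.17.1). Lengths and overlaps came from GENCODE, promoters from RefSeq. Alternatives were a pseudocount of 10, no filter, 2 other scalings, only the timepoints compared, edgeR 4.0.16 (TMM), DESeq2 1.42.0, each library left out, and other lengths. All members, the lists' 2 largest changes each way at d20, all beta subunits that passed the filter and the 2 most alike genes per member were named, except 1 gene that is not reported here. Members and lists were chosen with earlier results of these data known. The scripts were tested on simulated data.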

Additional observations from a re-analysis of the deposited data

Results flagged for a closer look

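For each of the 7 members tested, the level differed between treated days in a direct contrast (limma, Benjamini-Hochberg adjusted within each contrast). The pair of days with the largest difference was picked for each member after its values were seen. Such differences were common, as 79.8% of all genes tested changed from d10 to d15 and 64.9% from d1 to d4. The count of members therefore does not set them apart from other genes. *ITGA2* was lower at d15 than at d1 by a log2 difference of -1.42 (standard error 0.09, adjusted p = 1.01e-11), and *ITGA10* was higher at d15 than at d1 by 1.42 (standard error 0.11, adjusted p = 1.49e-10). Between d10 and d15, *ITGA6* changed by -0.88 (adjusted p = 2.4e-15), *ITGA3* by -0.45 (adjusted p = 1.37e-06) and *ITGAV* by 0.81 (adjusted p = 8.65e-13). *ITGA5* was lower at d10 than at d4 by -0.88 (adjusted p = 5.16e-10), and *ITGA1* higher at d4 than at d1 by 0.48 (adjusted p = 0.000125).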

How the results depend on the processing

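The alternatives gave 1492 values for 130 results, of which 1459 had the same direction and call, or a count within 1.5 times. With every library scaled to one total, the number of members lower at d1 went from 0 to 1 (*ITGA10*), and calls over all genes were higher in 26.7% to 39.1% on the 6 days in place of 51.1% to 54.6% (41.9% to 47.7% with quantile normalization). *ITGA10* at d7 reversed to a log2 fold change of -0.081 with that scaling and ran from -0.074 (without d7 library 3) to 0.23 when single libraries were left out, and *ITGAV* from d4 to d7 (0.05) reversed to -0.0026 without d7 library 2 and was 0.11 without d7 library 3. With a pseudocount of 10, the change in the log2 ratio of *ITGA11* to *ITGA2* against d0 reversed to -0.96 at d4, -0.32 at d7, -0.43 at d15 and -0.080 at d20. Leaving out single libraries gave it -0.49 to 0.54 at d4 and -0.44 to 0.59 at d15 (negative without d0 library 2). That of *ITGAV* to *ITGA3* at d20 ran from -0.028 to 0.018. No cause of these shifts was tested, and depth limits *ITGA4* and *ITGA11*, at most 15 reads per library. No paired analysis was possible because no column names its replicate, so a replicate block could not be fitted.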
